A study of Cannabis sativa with 12 samples.

Results

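The comparison of hemp hypocotyls sampled 15 days after sowing (H15) with those sampled 6 days after sowing (H6) is described here across annotated genes. Its members are all 3622 contigs of the deposited expression table, which are also all the contigs of the table for the whole series, read in the 3 libraries of H15 and the 3 libraries of H6 out of 12 libraries. The study followed whole hypocotyls of the fiber hemp cultivar Santhica 27 (Cannabis sativa) at 4 ages, H6, H9, H15 and H20, the number being days after sowing. Each library came from a pool of 20 hypocotyls drawn at random across the incubators, all plants belonged to a single experimental batch, and every age grew in the same cycle of 16 h light (25 °C) and 8 h darkness (20 °C). Pools carry the replicate numbers of the labels, 1 to 3 in each age, which name a pool and do not link pools across ages. No age received a treatment, so H6 and H15 plants shared cultivar, organ and growth conditions and differed in age. A pool is a mixture of every cell type of the organ, and in such bulk samples fewer cells of a type and less RNA per cell cannot be told apart.

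The hypocotyl is the stem segment below the cotyledons. It first elongates, when its cells have thin, extensible primary walls, and then thickens, when the vascular cambium adds secondary xylem and phloem. Xylem cells and bast fibers then lay down a secondary wall of cellulose and xylan, in the xylem with much lignin. In Arabidopsis, NAC and MYB transcription factors switch this wall programme on, and dedicated cellulose synthases, xylan enzymes, monolignol enzymes and laccases carry it out.

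Between 13413485 and 16522486 reads were mapped in the H6 libraries and between 16839657 and 25855409 in the H15 libraries, as implied by the deposited counts and RPKM (reads mapped to a contig, divided by its length and by the library's mapped reads). The contigs of the table held 35.6% to 36.8% of the mapped reads in H6 and 31.9% to 32.6% in H15, and the smallest count of any contig in any library was 11 reads. Pools of the same age correlated at r = 0.965 to 0.979 within H6 and 0.964 to 0.987 within H15 on log2 RPKM, against 0.348 to 0.441 between ages, as a description over contigs that the authors had selected for differing among ages. Contigs are named by the closest Arabidopsis gene of the deposited annotation, and a contig number follows where several contigs carry one name, since reads of near-identical copies may have been split between them.

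Of the 3622 contigs, 2561 (70.7%) were called, which required that the edgeR quasi-likelihood test gave a Benjamini-Hochberg adjusted p below 0.05 and that the ages differed by more than 1 on the log2 scale: 1272 (35.1%) were higher in H15 and 1289 (35.6%) were lower. These shares apply within a table that the authors had already restricted to contigs differing among the 4 ages, so they are the background for each gene list and not a share of the transcriptome. The median log2 fold change was −0.38, and 80% of contigs lay between −2.21 and 2.25. At 182 contigs the rise exceeded 3 on the log2 scale, and at 171 the fall did. The adjusted p alone was passed by 3340 contigs (92.2%). H6 and H15 libraries did not overlap in RPKM at 3319 contigs (91.6%), of which 1491 (41.2%) were higher in H15 and 1828 (50.5%) lower. Of the 2561 called contigs, 2283 carried a symbol or description, 1161 of them higher and 1122 lower.

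**Figure D1:**
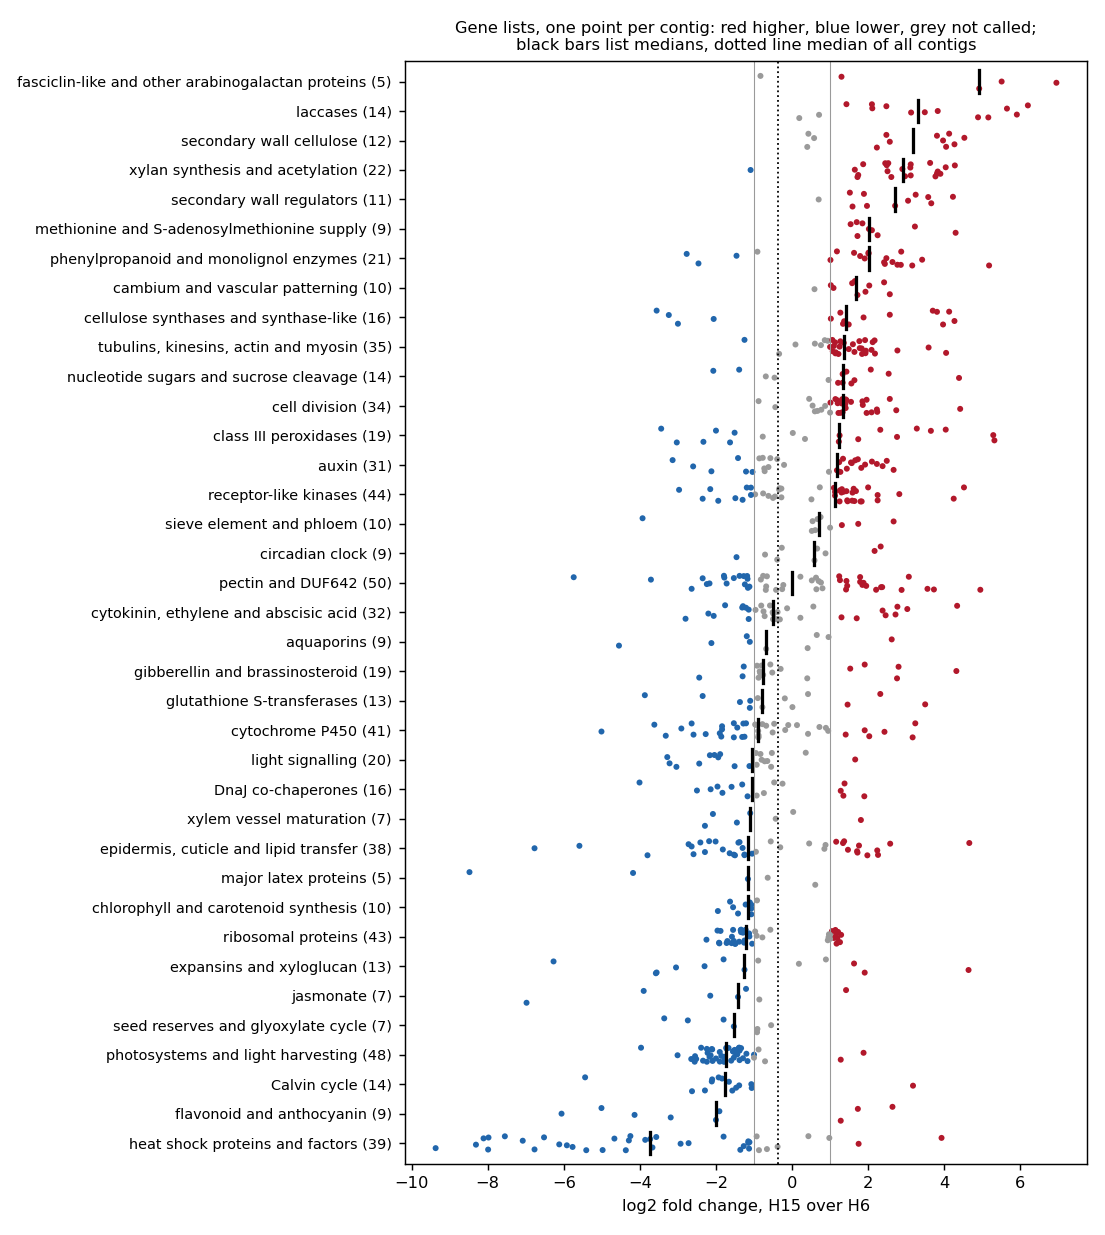
Log2 fold change of H15 over H6 (x axis) for every contig of the gene lists (y axis, number of contigs in parentheses), in red where called higher, blue where called lower and grey where not called. Black bars are list medians, the dotted line is the median of all 3622 contigs at −0.38, and thin lines mark −1 and 1; list medians run from 4.92 for fasciclin-like proteins to −3.73 for heat shock proteins and factors.

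Regulators of the secondary wall were higher in H15. Of 11 contigs, 10 rose, none fell, and the list median was 2.71. NST1, a NAC factor that starts fiber wall thickening in Arabidopsis, stood at 7.99, 6.55 and 3.01 RPKM in the H6 pools and at 35.7, 33.0 and 36.1 in the H15 pools. The pools did not overlap, H6 pool 3 being the lowest, and the rise was 6.54-fold (log2 fold change 2.71 ± 0.28 SE, adjusted p 8.11e-07). MYB46, a master switch acting below NST1, went from 2.14, 1.91 and 1.25 RPKM to 19.2, 20.5 and 18.0, a rise of 12.0-fold. NAC073 (SND2) rose 8.26-fold, NAC075 12.7-fold and KNAT7, a homeobox regulator of fiber and xylem walls, 3.7-fold. VND1, a NAC factor of vessel identity, rose less, 2.86-fold, from 13.5, 11.1 and 11 RPKM to 31.8, 29.5 and 31.9. XND1, which in Arabidopsis restrains xylem cell maturation, rose 18.7-fold, from 1.62, 2.33 and 1.68 RPKM to 37.3, 28.6 and 31.3. MYB85, linked to lignin synthesis, did not pass the fold limit, at 24.3, 20.6 and 15.9 RPKM in H6 and 29.3, 26 and 35.1 in H15 (log2 fold change 0.70).

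Among all 131 contigs of transcription factors, 56 (42.7%) were higher, 39 (29.8%) were lower, and the median was 0.43. Of all contigs 35.1% were higher and 35.6% lower. The NAC family had 6 of 8 contigs higher and 1 lower, and auxin response factors had 3 of 4 higher and none lower. Basic helix-loop-helix factors were mixed, with 6 of 23 higher and 8 lower. WLIM1 (contig 4635), a LIM protein, rose 9.53-fold, from 59.6, 46.3 and 38.1 RPKM to 425, 442 and 389. NAC047 rose 17.4-fold from 2.4, 1.34 and 0.81 RPKM, and its H15 pools were spread from 14.8 to 33.7. Of the factors, the largest falls were of bHLH137 (29.4-fold), HSFA2, an activator of the heat response (20.7-fold), bHLH87 (13-fold), BZIP61 (11.4-fold) and MYB114, a relative of the anthocyanin activators (9.12-fold). BZIP61 went from 85.1, 74.9 and 90.6 RPKM to 7.47, 7.02 and 5.59, with no overlap.

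**Figure D2:**
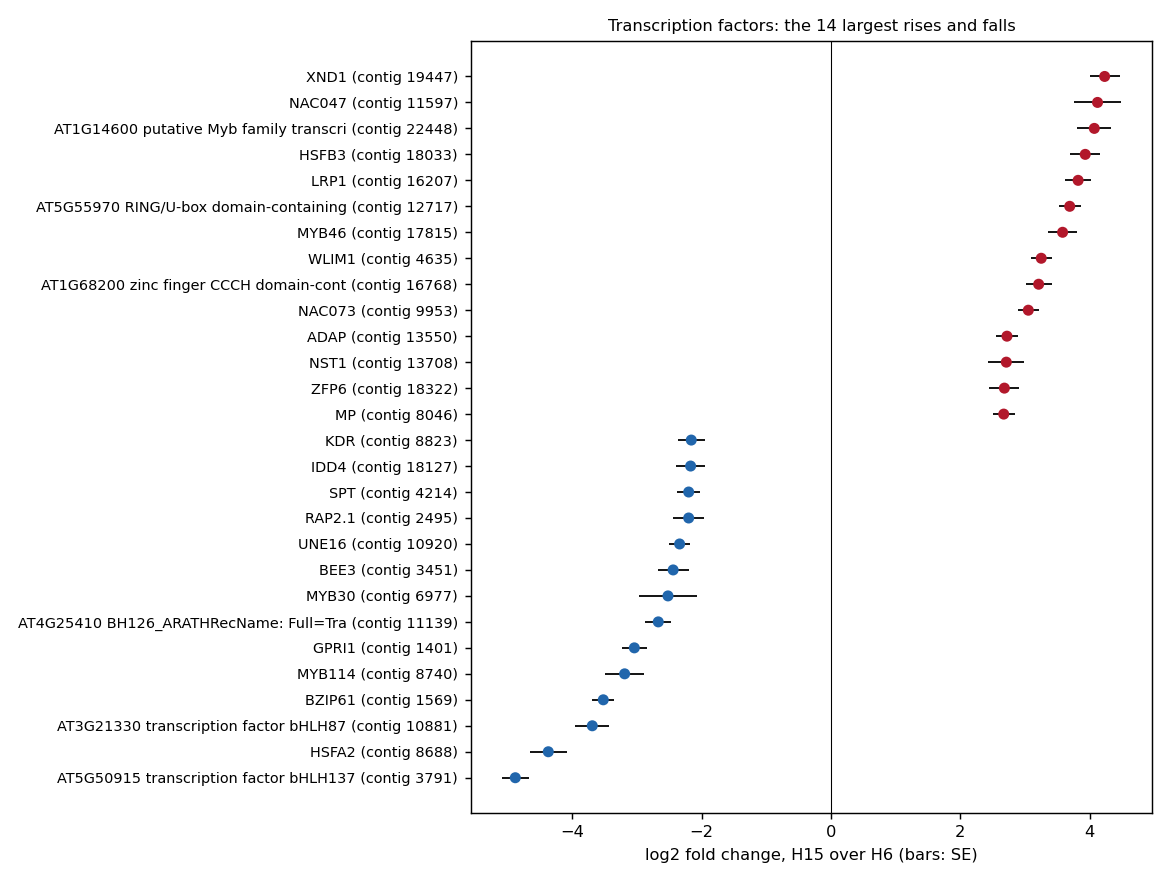
Log2 fold change of H15 over H6 (x axis, bars are standard errors of the edgeR fit) for the 14 transcription factor contigs with the largest rises (red) and the 14 with the largest falls (blue), among called contigs whose libraries do not overlap and whose higher group averages at least 10 RPKM. XND1 lies at 4.23 and bHLH137 (AT5G50915) at −4.88.

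Genes of the vascular cambium and of vascular patterning rose together but by less. Of 10 contigs, 9 rose and none fell, with a median of 1.69. PXY, the receptor that keeps cambium cells dividing, stood at 34.0, 30.1 and 21.6 RPKM in H6 and 69.1, 90.6 and 74.2 in H15, a rise of 2.99-fold. WOX4, a homeobox factor acting below PXY, rose 2.13-fold, from 43.4, 38.0 and 34.7 RPKM to 74.7, 86.4 and 64.8. The WOX4 call stood close to the fold limit and was lost without TMM factors (0.96), with limma on RPKM (0.94 and 0.96), against a fold floor (adjusted p 0.148) and without H15 replicate 2 (0.96). LBD4 rose 5.93-fold, bHLH30 5.35-fold and TORNADO 2 3.8-fold. LHW, a bHLH factor of vascular cell division, overlapped between ages at 10.8 to 15.6 RPKM in H6 and 14.2 to 23.8 in H15.

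Of 34 cell division contigs 25 were higher and none lower, with a median of 1.33; 1 was lower without TMM factors and with limma at either pseudocount. Among the D-type cyclins, which carry cells from G1 into DNA replication, cyclin-D6-1 (contig 11624) went from 0.71, 0.59 and 0.87 RPKM to 14.5, 16.7 and 11.5, a rise of 21.4-fold. Cyclin-D3-1 (contig 6063) rose 4.7-fold, from 16.0, 16.1 and 11.5 RPKM to 61.8, 70.6 and 54.6, and cyclin-D3-2 (contig 20166) 5.93-fold. FBL17, an F-box protein that lifts the block on replication, rose 6.7-fold. The 5 contigs named as subunits of the MCM replication helicase, MCM2, MCM3, MCM4, MCM5 and MCM6, rose, with log2 fold changes from 1.32 (MCM5) to 1.86 (MCM6), and the spindle protein TPX2 was not called, at 0.67. MCM and TPX2 contigs were singled out after their values were seen.

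The cellulose synthases of the secondary wall, CESA4, CESA7 and CESA8, act as one complex and rose by similar amounts. The primer pairs that the study designed for these contigs are given here, along with those for NST1 and for the arabinogalactan protein FLA11, which it lists as AGP-like. The primers were not aligned to the contigs, so they do not by themselves establish which transcript a contig is. They run 5′ to 3′, with no base marked.
CESA4 (contig 804) forward: ggggtggaatgctaagactg
CESA4 (contig 804) reverse: ggcttccatttccccaaac
CESA7 (contig 6418) forward: cctgatgtcaagcaatgtgg
CESA7 (contig 6418) reverse: tgtatcttgtggggatgcac
CESA8 (contig 9355) forward: gggagccaaaggaacctg
CESA8 (contig 9355) reverse: gagctgttcaccacaagtgttac
NST1 (contig 13708) forward: cctggcttcagatttcatcc
NST1 (contig 13708) reverse: tatcccagggttcgagtttg
FLA11 (contig 10048) forward: aaagcagggcaatacaccac
FLA11 (contig 10048) reverse: aatgccctgacttgaaccac

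CESA4 (contig 804) stood at 112, 142 and 77.6 RPKM in H6 and 1600.7, 1694.6 and 1446.3 in H15, a rise of 15.7-fold (log2 fold change 3.97 ± 0.23 SE, adjusted p 5.53e-09). CESA7 (contig 6418, listed as IRX3) went from 25.1, 25.9 and 7.65 RPKM to 332, 326 and 376, and CESA8 (contig 9355, listed as IRX1) from 25.2, 26.3 and 10.4 to 325, 310 and 355. The ages lay far apart for all 3 enzymes, with rises of 19.3-fold for CESA7 and 17.5-fold for CESA8, and H6 pool 3 was the lowest each time. A further CESA4 contig, 812, rose 14-fold. Per length of transcript, CESA4 was the most abundant of the 3 at both ages. Over the whole list of secondary wall cellulose genes, 9 of 12 contigs rose, none fell, and the median was 3.19. CTL2, a chitinase-like protein needed for cellulose deposition, had the largest rise of the list, 23.1-fold, from 22.6, 27.2 and 11 RPKM to 454, 440 and 388. MAP70-5, which places wall bands along microtubules, rose 16.6-fold and the COBRA-like protein IRX6 5.93-fold. Not called were TED7 (log2 fold change 0.58) and both contigs of the sucrose synthase SUS6, 11699 (0.40) and 11925 (0.43), and for all 3 the H6 and H15 pools overlapped.

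The cytoskeletal list moved with them, 28 of 35 contigs being higher, 1 lower and the median 1.36. TUB8, a beta-tubulin, rose 6.84-fold, from 127, 130 and 96.9 RPKM to 716, 810 and 690. MAP65-8, a microtubule-bundling protein, rose 12.1-fold, from 9.25, 12.4 and 5.02 RPKM to 99.3, 98.2 and 97.0. The only contig to fall was a tubulin-tyrosine ligase (AT1G77550), 2.38-fold. In the wider family of cellulose synthases and cellulose synthase-like enzymes, 12 of 16 contigs rose. The other 4 fell: CSLC04, which builds the glucan backbone of xyloglucan in the primary wall, fell 11.8-fold, from 61.0, 58.9 and 77.1 RPKM to 5.47, 4.84 and 4.97, and 3 contigs of CSLE1 fell 9.45-fold (contig 3813), 8.02-fold (contig 3812) and 4.17-fold (contig 7777), while another CSLE1 contig, 1306, rose 2.03-fold.

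**Figure D3:**
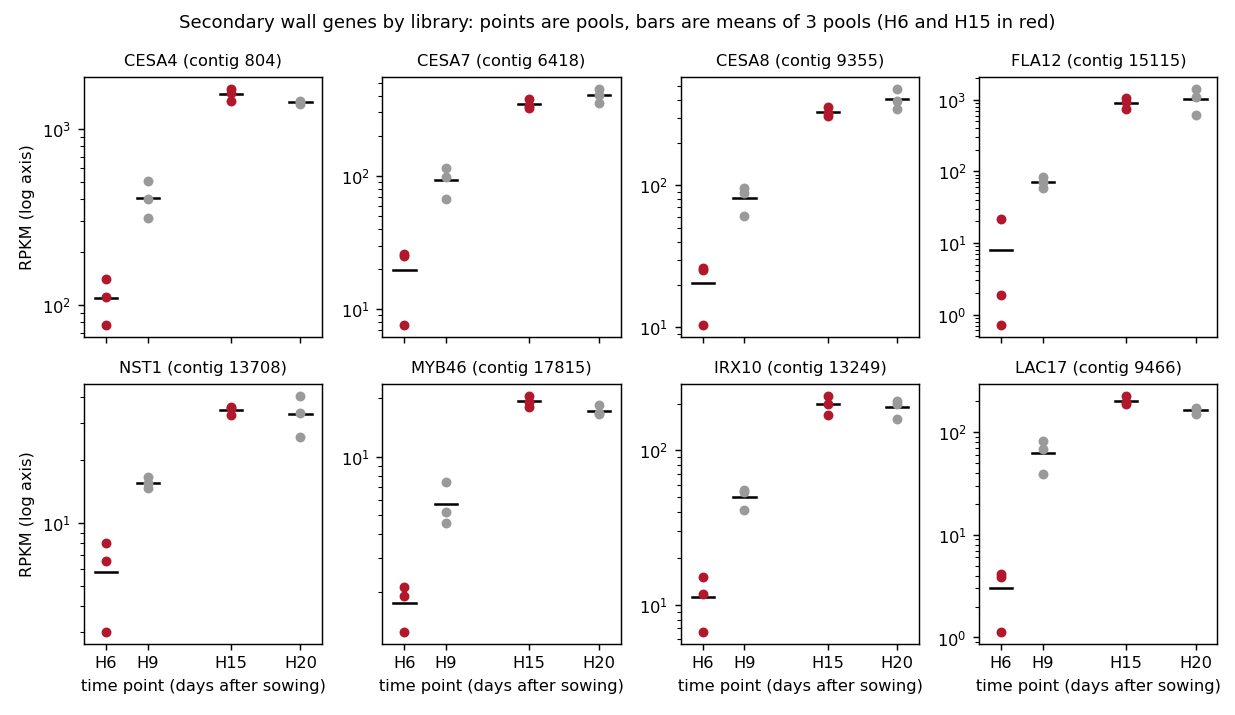
RPKM on a log axis (y) against age (x) for 8 secondary wall genes, with 1 point per pool, bars at the mean of 3 pools, and H6 and H15 in red. In every panel the H15 pools lie above all H6 pools, the H9 pools lie between, and H6 pool 3 is the lowest point, for example 3.01 RPKM for NST1 and 0.72 RPKM for FLA12.

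For xylan, the main hemicellulose of the secondary wall, 21 of 22 contigs rose, with a median of 2.93. IRX10 (listed as GUT2), a xylosyltransferase of the backbone, went from 11.7, 15.1 and 6.64 RPKM to 200, 224 and 169, a rise of 19.5-fold, and IRX14, which also acts on the backbone, rose 8.68-fold. PGSIP1 and PGSIP3, which add glucuronic acid side chains, rose 16.4-fold and 14.9-fold, and IRX8 (listed as GAUT12), needed for the end sequence of xylan, rose 14-fold. ESK1, a xylan acetyltransferase, rose 8.65-fold, from 46.3, 38.2 and 20.3 RPKM to 278, 289 and 261. The one contig that fell was TBL35, another trichome birefringence-like protein, from 41.1, 39.4 and 42.7 RPKM to 18.2, 16.5 and 18.2 (2.13-fold); that call was lost with DESeq2 (log2 fold change −0.85), with the 6 libraries alone (−0.98) and against a fold floor (adjusted p 0.115). Among enzymes of nucleotide sugars and sucrose cleavage, 9 of 14 contigs rose and 2 fell, with a median of 1.33. RGP2, a mutase of UDP-arabinose, rose 5.82-fold, and UGD4, a UDP-glucose dehydrogenase, 3.11-fold. MIOX1 (contig 14402), an inositol oxygenase, rose 21.0-fold, from 7.47, 26.5 and 4.66 RPKM to 222, 238 and 280, while the vacuolar invertase ATBETAFRUCT4 fell 4.19-fold. Without H6 replicate 2, the highest H6 pool of MIOX1 contig 14402, its log2 fold change was 5.47 in place of 4.39. Another MIOX1 contig, 2516, was not called, with means of 82.6 RPKM in H6 and 55.1 in H15 (log2 fold change −0.46).

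The largest rise of the table was that of FLA12 (contig 15115). It is one of the fasciclin-like arabinogalactan proteins, which the paper proposes may take part in secondary wall deposition of fibers. It stood at 1.88, 21.6 and 0.72 RPKM in H6 and 739, 931 and 1059 in H15, a rise of 124-fold (log2 fold change 6.95 ± 0.92 SE, adjusted p 9e-06). H6 pool 2 was far above the other H6 pools, and without it the log2 fold change was 9.61. The other FLA12 contig, 1788, went from 17.3, 27.1 and 6.81 RPKM to 651, 744 and 729 (45.5-fold), and FLA11 from 30, 40.9 and 14 to 742, 856 and 752 (30.3-fold). FLA16 rose 2.45-fold. FLA2 was not called, at 88.5, 105 and 130 RPKM in H6 and 57.8, 49.9 and 59.2 in H15.

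The phenylpropanoid pathway makes the monolignols from phenylalanine, and 17 of its 21 contigs rose, with a median of 2.01. At its entry, PAL2 went from 97.6, 93.6 and 62.4 RPKM to 528, 562 and 492, a rise of 6.82-fold, and C4H rose 4.02-fold. 4CL2, which makes the CoA esters, rose 10.7-fold, from 110, 106 and 46.0 RPKM to 868, 843 and 855. Of the enzymes that follow, HCT (contig 2469) rose 7.29-fold, CCoAOMT1 5.34-fold, CCR1 4.03-fold and CAD4 (contig 1798) 3.1-fold. The list was not uniform, and contigs that carry the same enzyme name went opposite ways. Whether such contigs are copies of the same gene was not tested. HCT, which rose at contig 2469, fell 5.48-fold at contig 14769. ALDH2C4, which makes ferulic and sinapic acids, fell 6.82-fold at contig 9652 and rose 5.41-fold at contig 19787. CAD9 was not called (log2 fold change −0.91). The call for the PAL1 contig 17365 (log2 fold change 1.18) was lost with limma and a pseudocount of 1 (0.98), against a fold floor (adjusted p 0.188) and without H6 replicate 2 (0.96).

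Methyl groups for lignin and xylan come from S-adenosylmethionine, and all 9 contigs of its supply rose, with a median of 2.02. MTO3, an S-adenosylmethionine synthase, went from 63.6, 72.2 and 36.8 RPKM to 1052.3, 1105.2 and 951, a rise of 19.7-fold. The methionine synthase ATMS1 rose 4.04-fold at contig 54 and 9.39-fold at contig 2444, and the serine hydroxymethyltransferase SHM4 4.29-fold.

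Laccases oxidise monolignols in the wall, and 12 of 14 contigs rose, none fell, and the median was 3.31. LAC17 (contig 9466) went from 4.11, 3.84 and 1.13 RPKM to 187, 223 and 193, a rise of 73.4-fold. LAC4 (listed as IRX12) rose 60-fold at contig 18137, 14.2-fold at contig 5768 and 5.56-fold at contig 6676. LAC13 rose 50.1-fold, and LAC5 35.7-fold, from 6.2, 3.18 and 0.63 RPKM; without H6 replicate 1 the log2 fold change of LAC5 was 5.96 in place of 5.16. The 8 contigs named LAC17 differed: 6 rose, and 8833 (log2 fold change 0.19) and 10082 (0.71) overlapped between ages, with 70.6, 80.7 and 77.0 RPKM against 94.5, 96.1 and 48.5 for contig 8833. Class III peroxidases, which also oxidise monolignols and other phenolics, were divided, 10 of 19 rising and 6 falling. The peroxidases AT5G06730 and PRX52 (contig 18987) rose 39.2-fold and 40-fold, and the peroxidase contig 6586 (ATP13a) fell 10.9-fold, with H15 pools at 5.62, 2.67 and 15.8 RPKM. Without H15 replicate 3, the highest of these, that log2 fold change was −4.42 in place of −3.44.

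H6 pool 3 was the lowest of the H6 pools at 9 of the 9 called cellulose contigs, 15 of the 17 called phenylpropanoid contigs, 10 of the 12 called laccase contigs and 14 of the 21 called xylan contigs that rose, against 688 of all 1272 contigs that rose. Without this pool 9, 16, 12 and 21 contigs of these lists were called higher. The 4 contigs of fiber markers were of NST1, FLA11 and FLA12 (2 contigs). Together they measured 57.2, 96.2 and 24.6 RPKM in H6 and 2167.3 to 2576.1 in H15. FLA11 and FLA12 made up most of this sum. The paper describes both Arabidopsis proteins as active in xylem vessels as well as in fibers. The sum therefore does not set fibers apart from vessels. The 3 contigs of cambium markers measured 116 to 159 RPKM in H6 and 338 to 402 in H15. The 4 vessel marker contigs measured 78.1 to 84.6 RPKM in H6 and 47.7 to 82.0 in H15. VND1 rose, MC9 (metacaspase 9) and BFN1 (a nuclease) fell, and RNS3 was not called. These sums cover only the preset markers that had a contig in the table. Those were 4 of 8 for vessels, 3 of 4 for fibers, 3 of 4 for cambium and 1 of 5 for phloem. MC9 fell 2.74-fold, from 26.6, 24.6 and 25.2 RPKM to 6.94, 4.49 and 14.2 (log2 fold change −1.45, and −2.04 without H15 replicate 3), a call that was lost against a fold floor (adjusted p 0.0502). The BFN1 call was lost with DESeq2 (−0.86), with the 6 libraries alone (−0.98), against a fold floor (adjusted p 0.204), without H6 replicate 3 (−0.89) and without H15 replicate 2 (−0.95). The peptidase contigs 3504 and 1631, both CEP1, fell 4.91-fold and 4.22-fold, so that 4 of 7 contigs of vessel maturation fell (2 against a fold floor) and 1 rose. The sieve element gene SEOR1 (AT3G01680) had 6 contigs, which summed to 347, 365 and 158 RPKM in H6 and 388 to 419 in H15, and 1 of them, contig 6809, was called, with means of 0.707 and 4.15 RPKM (log2 fold change 2.67, and 3.49 without H6 replicate 2). In the wider phloem list 3 of 10 contigs rose, among them the sucrose transporter SUT4 (3.34-fold), and 1 fell. No marker contig of the epidermis or of root hairs was among those of the table, and their part in these results was not tested.

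Genes of primary wall extension were lower in H15. Of 13 expansin and xyloglucan contigs, 7 fell, 3 rose, and the median was −1.25. EXPA8, an expansin that loosens primary walls, went from 185, 161 and 119 RPKM to 1.65, 1.27 and 2.6, a fall of 77-fold (log2 fold change −6.27 ± 0.30 SE, adjusted p 1.24e-09). EXPA5 fell 8.28-fold, with its H15 pools at 22.9, 11.3 and 14 RPKM and its H6 pools no higher than 158 RPKM. The family did not move as one: EXPA4 rose 3.1-fold, XTH15 3.75-fold and TCH4 (XTH22), a touch-induced xyloglucan enzyme, 25.0-fold, from 1.69, 3.86 and 1.29 RPKM to 52.5, 50.6 and 53.9 (log2 fold change 4.64, and 5.26 without H6 replicate 2), while At-EXPA1 (contig 3058) overlapped between ages (log2 fold change 0.18). Of 50 pectin contigs 18 (36.0%) were higher and 17 (34.0%) lower, with a median of −0.01. These shares are near the 35.1% and 35.6% of all contigs. A DUF642 wall protein (AT5G25460) fell 53.5-fold, from 371, 409 and 495 RPKM to 7.2, 7.13 and 7.57, and the pectin methylesterase ATPMEPCRB fell 6.24-fold at contig 4541 and rose 30.8-fold at contig 20308.

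MLP423, a major latex-like protein, went from 817, 950 and 960 RPKM to 2.43, 2.82 and 1.7, a fall of 357-fold, and of the 5 contigs of its family 3 fell and none rose. The GDSL esterase AT5G45670 fell 109-fold, from 368, 367 and 426 RPKM to 3.8, 0.63 and 5.52 (log2 fold change −6.77, and −7.42 without H15 replicate 3), and another, AT3G16370, 48.1-fold. In the list of epidermis, cuticle and lipid transfer genes 20 of 38 contigs fell and 12 rose, among the latter the lipid transfer protein AT5G38170 (25.3-fold). Cytochrome P450 contigs fell in 18 of 41 cases and rose in 6; CYP96A1 (contig 2106), of a family that acts on wax alkanes in Arabidopsis, fell 32.2-fold, from 104, 110 and 108 RPKM to 2.89, 4.27 and 1.81. Of 13 glutathione S-transferase contigs 5 (38.5%) fell and 3 (23.1%) rose, against 35.6% and 35.1% of all contigs. They ranged from GSTU25 (contig 1971) at 14.6-fold lower to GSTU9 at 11.3-fold higher. Only 3 fell with DESeq2 or with the 6 libraries alone and 2 against a fold floor. Among 7 contigs of seed reserves and the glyoxylate cycle 4 fell and none rose, with isocitrate lyase (ICL) down 10.2-fold. Of 9 aquaporin contigs 4 fell and 1 rose, and the tonoplast aquaporin TIP1-3 (contig 3665) fell 23.4-fold. With DESeq2 2 fell and 2 rose, and 2 rose also with the 6 libraries alone and without H6 replicate 3. The call of the PIP1-4 contig 278 (log2 fold change −1.11) was lost with DESeq2 (−0.86), with the 6 libraries alone, against a fold floor (adjusted p 0.118) and without H6 replicate 1 (−0.99). Another PIP1-4 contig, 279, went the other way without being called, from a mean of 58.7 RPKM to 105 (log2 fold change 0.96).

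Hormone genes were mixed. Of 31 auxin contigs 16 (51.6%) rose and 6 (19.4%) fell, with a median of 1.18. MP (ARF5), the response factor of vascular patterning, rose 6.37-fold. WAT1, an auxin transporter of the tonoplast needed for fiber walls in Arabidopsis, rose 2.92-fold (contig 3133) and 2.36-fold (contig 3134). PIN3, an auxin efflux carrier of tropic growth, fell 2.67-fold, and the repressor IAA14 fell 8.83-fold, from 552, 589 and 618 RPKM to 59.1, 52.5 and 71.3. Cytokinin, ethylene and abscisic acid genes rose in 8 (25.0%) and fell in 9 (28.1%) of 32 cases. AHP4, a phosphotransfer protein of cytokinin signalling, was 20.2-fold higher, and the ethylene-forming enzyme contig 5071 was 6.95-fold lower. Gibberellin and brassinosteroid genes rose in 5 (26.3%) and fell in 3 (15.8%) of 19 cases. The shares of both lists lay below the 35.1% and 35.6% of all contigs. Without TMM factors, and with limma at a pseudocount of 0.1, 5 gibberellin and brassinosteroid contigs fell. EXL3 and BRL2, a BRI1-like kinase, rose 6.77-fold and 3.76-fold, and BEE3 fell 5.42-fold. In the jasmonate list 5 of 7 contigs fell and 1 rose. Among the fallers were LOX1 (contig 46, 4.43-fold) and the hydroperoxide lyase HPL1 (2.68-fold), and the riser was OPR2 (2.68-fold). The paper measured more jasmonic acid and cis-OPDA in H15 than in H6, so these counts do not stand for hormone content. The lipoxygenase AtLOX2 (contig 584) fell 126-fold, from 170, 168 and 233 RPKM to 2.87, 0.47 and 1.03 (log2 fold change −6.98, and −7.86 without H15 replicate 1).

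Photosynthesis genes were lower in H15. For photosystems and light harvesting 43 of 48 contigs fell, 2 rose, and the median was −1.73. Both risers were contigs 1851 and 9511 of AT1G69680, named in the annotation by a shared Mog1 and PsbP family title. Whether it is a photosystem protein was not tested. LHCB4.3, an antenna protein, went from 121, 127 and 138 RPKM to 7.19, 6.55 and 8.82, a fall of 15.7-fold. CAB1 (contig 126), the most abundant of the list per length, fell 2.01-fold, from 6197.1, 9275.5 and 9758.2 RPKM to 3990.3, 4210.8 and 3310. That call lay on the fold limit (adjusted p 0.000111) and was lost with DESeq2 (−0.76), with the 6 libraries alone (−0.89), against a fold floor (adjusted p 0.345), and without H6 replicate 2 (−0.94), H6 replicate 3 (−0.88) or H15 replicate 3 (−0.90). In the Calvin cycle 13 of 14 contigs fell; RBCS1A, the small subunit of Rubisco, fell 6.19-fold, from 772, 896 and 890 RPKM to 131, 130 and 118. Of 10 contigs of chlorophyll and carotenoid synthesis, 9 fell and none rose, but 4 fell with DESeq2 and 5 with the 6 libraries alone or against a fold floor. Plastid and other ribosomal proteins separated: 23 of 28 plastid contigs fell and 1 rose (median −1.34), and 8 of 15 other ribosomal contigs rose and 2 fell (median 1.05). RPL12-C, of the plastid large subunit, fell 3.9-fold, and RPL18, of the cytosolic large subunit, rose 2.31-fold. Over plastid and other contigs together the count of risers was 9, and it was 14 with DESeq2 or with the 6 libraries alone and 5 against a fold floor. The green tissue markers RBCS1A and RCA summed to 1734.1 to 1758.6 RPKM in H6 and 366 to 408 in H15. A further preset marker, LHCB1, matched no contig, and the CAB1 contigs, of which 126 fell 2.01-fold, are not in this sum. H6 pool 1 was the lowest H6 pool at 39 of the 43 falling photosystem contigs and 22 of the 23 falling plastid ribosomal contigs. It was so at 602 of all 1289 contigs that fell. Without this pool 0 of 80 list counts moved by over 1.5 times.

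Of 20 light signalling contigs 10 were lower, 1 was higher and 9 were not called. GLK1 (listed as GPRI1), an activator of chloroplast genes, fell 8.25-fold, from 27.7, 27.0 and 22.9 RPKM to 2.33, 2.77 and 3.47, PKS4 9.34-fold and PIF3 2.84-fold. HY5 fell 2.18-fold, and its call was lost with DESeq2 (log2 fold change −0.87), against a fold floor (adjusted p 0.147) and without H15 replicate 3 (−0.95). The riser was BBX32, a repressor of HY5 activity, at 3.16-fold. In flavonoid synthesis, which makes anthocyanins and related pigments, 6 of 9 contigs fell and 3 rose. H6 pool 1 was the lowest H6 pool at each of the 6 that fell. LDOX, a late enzyme, went from 90.6, 140 and 163 RPKM to 3.69, 0.59 and 1.46, a fall of 66.8-fold (log2 fold change −6.06, and −6.88 without H15 replicate 1). F3H fell 32.3-fold and chalcone synthase (TT4) by 4.14 on the log2 scale. The 3 risers were contigs named TT7, flavonoid 3′-monooxygenase, with 6.25-fold at contig 9157, 3.32-fold at contig 1655 and 2.43-fold at contig 2289, and a TT7 contig, 10622, fell 3.99-fold.

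Heat shock proteins, chaperones that accumulate on heat and other stress, had the lowest median of the lists. Of 39 contigs of heat shock proteins and factors 31 fell, 2 rose, and the median was −3.73. Their summed level was 28297.8, 29181.1 and 37124.4 RPKM in the H6 pools and 1641.3, 1745.9 and 1565.8 in the H15 pools, which is 3.4% to 3.89% of mapped reads in H6 and 0.29% to 0.318% in H15. HSP90.1 went from 3297.1, 2669.0 and 2137.5 RPKM to 12.6, 13.8 and 13.1, a fall of 188-fold (log2 fold change −7.55 ± 0.20 SE, adjusted p 2.03e-11). The class II small protein HSP17.6II went from 2872.7, 3485.4 and 4416.7 RPKM to 13.4, 13.5 and 11.9 (254-fold), and a small heat shock contig, 1629, had the largest fall of the table, 661-fold, from 781, 862 and 1746 RPKM to 1.7, 1.59 and 1.41. Heat shock protein 18 (contig 118) was highest in H6 pool 3 at 2989.4 RPKM against 948 and 1032.2 in the others, and its log2 fold change of −8.11 became −7.36 without that pool. AtHSP101, a disaggregating chaperone outside the list, fell 136-fold. Of 16 contigs of DnaJ co-chaperones 8 fell and 4 rose, and ATJ3 fell 16.1-fold. In the heat shock list the risers were HSFB3, a class B factor (15.2-fold), and a class V small protein, AT4G21870 (3.36-fold). With heat shock contigs left out of the library sizes and of the normalization factors, a setting chosen after seeing the data, 1258 contigs of the whole table were higher and 1302 lower. The paper gives the growth temperatures, but neither it nor the labels give a temperature or time of day at sampling. The part of either was not tested.

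**Figure D4:**
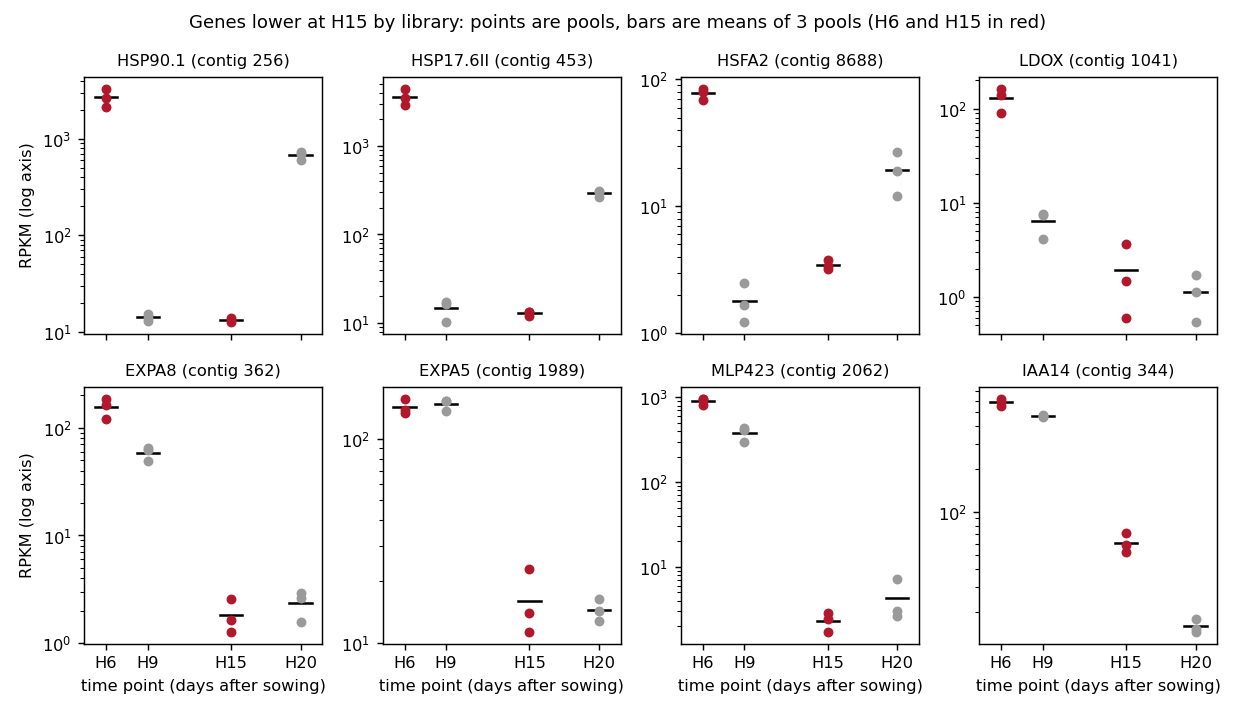
RPKM on a log axis (y) against age (x) for 8 genes that were lower in H15, with 1 point per pool, bars at the mean of 3 pools, and H6 and H15 in red. HSP90.1, HSP17.6II and HSFA2 are already low in H9 and higher again in H20 (mean 673 RPKM for HSP90.1), whereas EXPA5 and IAA14 are still high in H9 (means of 148 and 467 RPKM).

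Of 9 circadian clock contigs, 2 rose, 1 fell and 6 were not called. PRR5 rose 5.02-fold, from 5.8, 5.04 and 6.33 RPKM to 23.8, 23.2 and 32, and FKF1 4.51-fold, from 3.27, 3.4 and 8.22 to 21.0, 15.1 and 26.1 (log2 fold change 2.17, and 2.76 without H6 replicate 3). Both peak late in the day in Arabidopsis. LHY, which peaks at dawn, was not called, at 119, 115 and 99.9 RPKM in H6 and 153, 155 and 154 in H15. COL2 fell 2.75-fold.

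Transport and receptor genes changed in both directions. Of 134 contigs of membrane transporters 54 (40.3%) rose and 33 (24.6%) fell, with a median of 0.42. Of all contigs 35.1% rose and 35.6% fell. A nucleotide-sugar transporter (AT5G42420) rose 74.2-fold, from 0.95, 2.53 and 0.73 RPKM to 100, 101 and 85.4 (log2 fold change 6.21, and 6.96 without H6 replicate 2), and STP14 24.7-fold. MTN3, a SWEET sugar transporter, fell 63.9-fold, from 101, 107 and 79.1 RPKM to 0.92, 1.16 and 1.95. Of 44 receptor-like kinase contigs 24 (54.5%) rose and 9 (20.5%) fell, or 5 fell against a fold floor. A FERONIA-like receptor (contig 5297) fell 7.81-fold. Among other large rises were the cellulase AT1G13130 (contig 15513, 69.5-fold, from 4.07, 16.8 and 5.51 RPKM to 529, 552 and 593, with a log2 fold change of 6.12, and 6.98 without H6 replicate 2), the FT-family protein AT5G62040 (67.6-fold, from 2.09, 3.41 and 1.46 RPKM to 145, 180 and 104) and AT5G47635, of an extensin family (48.6-fold).

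The levels in H9 and H20, given without a test, place these changes in time. Of the 1272 contigs that rose, the H9 mean lay nearer to the H15 mean on a log2 scale at 585 and nearer to the H6 mean at 687, and of the 1289 that fell it lay nearer to H15 at 575 and nearer to H6 at 714. The 31 falling heat shock contigs all lay nearer to H15 in H9, as did the 6 falling flavonoid contigs and 22 of 23 falling plastid ribosomal contigs. Of the 7 falling expansin and xyloglucan contigs 2 did so, of the 20 falling epidermis and lipid contigs 2, and of the 10 falling light signalling contigs 1. On the rising side, 11 of 12 laccase contigs were nearer to H15 in H9, against 6 of 21 xylan contigs and 7 of 28 cytoskeletal contigs. From H15 to H20 the median log2 ratio of means was −0.07 over the contigs that rose and 0.18 over those that fell. It was 0.03 for cellulose, −0.09 for xylan and −0.43 for laccases, and the H20 mean was above the H15 mean at 1 of 12 laccase contigs. It was 2.47 for the falling heat shock contigs, 30 of 31 of which were higher in H20 than in H15. The highest of the 4 means was in H15 at 667 of the 1272 contigs that rose (52.4%) and in H20 at 519 (40.8%), and in H6 at 1113 of the 1289 that fell (86.3%).

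**Figure D5:**
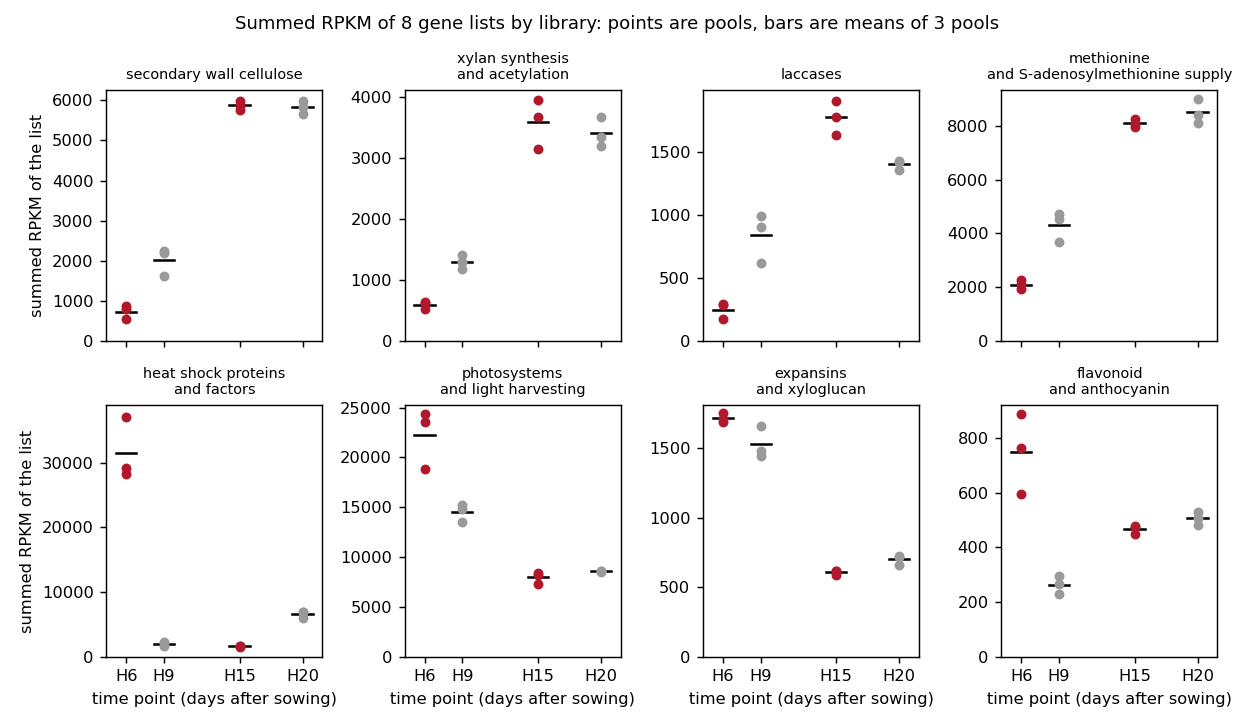
Summed RPKM of 8 gene lists (y axis, from 0) against age (x axis), with 1 point per pool, bars at the mean of 3 pools, and H6 and H15 in red. Secondary wall cellulose genes sum to 543 to 862 RPKM in H6 and 5755.0 to 5992.5 in H15, and heat shock genes fall from at least 28297.8 RPKM in H6 to at most 1745.9 in H15.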

How the data were processed

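mRNA isolated from the total RNA of whole hypocotyl pools was sequenced. The authors trimmed reads, removed duplicate reads from each library, assembled contigs de novo from them and mapped each library back, and the authors deposited, for each contig and library, the count of unique gene reads and RPKM. The deposited FDR p-value column holds the authors' test across the 4 ages, by which, with limits on reads, fold and RPKM difference, the contigs of the table had been selected, and was not used, nor were the authors' mean RPKM columns. Duplicate removal can lower the counts of the most abundant transcripts. Mapped totals were computed from counts, contig lengths and RPKM. Counts of all 12 libraries were fitted with edgeR 4.0.16 (R 4.3.3) with TMM factors and 1 mean per age, the contrast was H15 minus H6, and p-values were adjusted by Benjamini-Hochberg over all 3622 contigs. With 3 pools per age, p-values measure the spread between pools of 1 batch of plants. They were computed within contigs that the authors had selected by a test on the same libraries, so they are not independent of that selection. Alternatives used DESeq2 1.42.0, limma 3.58.1 on log2 of RPKM plus a pseudocount of 1 or 0.1, a count filter of 50 reads in 3 libraries, a test against a fold floor (glmTreat), and left out single libraries. In a test on simulated data, 200 of 3622 contigs were changed, evenly up and down. Of these, 97 of 100 changed by log2 1.5 and 100 of 100 changed by log2 3 were called. Far more contigs, 2561, were called in the data. The simulation therefore cannot show how the normalization behaves when most contigs change.

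Gene lists were matched by Arabidopsis locus, symbol or description. Lists and comparison were chosen with earlier results of these data known. Named were the 10 largest rises and 10 largest falls, up to 4 called contigs of each list and direction (libraries apart, at least 10 RPKM in the higher age), preset key genes and all members of counts of 5 or fewer, out of which a selection is described. Contig and promoter sequences were not used here. Results for a few genes are not reported here.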

Additional observations from a re-analysis of the deposited data

How the results depend on the processing

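Of 336 named contigs 283 were called, 269 of them under every alternative, and none of the 283 changed direction. The counts of contigs higher and lower were 1183 and 1434 without TMM factors, 1414 and 1008 with DESeq2, 1133 and 1377 with limma at a pseudocount of 1, 1188 and 1424 at 0.1, 1346 and 1159 with the 6 libraries alone, 1270 and 1290 with the count filter, and 1081 and 1026 against a fold floor. Leaving out 1 library gave 1248 to 1288 higher and 1258 to 1322 lower. These settings moved the median of all contigs by −0.13 without TMM factors, by 0.24 with DESeq2 and by 0.12 with the 6 libraries alone. With a replicate block the counts were 1276 and 1290, sharing 1269 and 1284 contigs with the fit without it, and 1 named call was lost (CAB1 contig 126, −0.99); deviations of same-numbered pools correlated at −0.13, 0.161 and −0.126, so the numbers were not read as pairs.

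Contigs that reversed were all uncalled, and the cause was not tested. Peroxidase contig 5582 (0.02) gave −0.09 without TMM factors, −0.14 and −0.19 with limma at pseudocounts of 1 and 0.1, −0.02 with the block and −0.34 to 0.40 without single libraries. GSTU8 contig 6277 (0.01) gave −0.11, −0.10 and −0.10 in the first 3 of these settings, −0.01 with heat shock contigs left out and −0.07 to 0.14 without single libraries. GSTU7 contig 10213 (−0.19) gave 0.05 with DESeq2. SUS6 contig 11925 (0.43) gave −0.02 to 0.87 without single libraries. RNS3 contig 18342 (0.03) gave −0.09 without TMM factors, −0.25 and −0.30 with limma, −0.14 with the block and −0.67 to 0.48 without single libraries.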
